A study of Mus musculus with 69 samples.

Results

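Apod, Apoe, Apoc1 and Clu were followed as the apolipoprotein genes of cultured murine vascular cells. The 4 genes were taken by their Ensembl identifiers from the 56953 genes of the count tables, across all conditions. Apod was selected on its lower RNA level in WT VSMC under metabolic stressors in these same libraries, and the other members were chosen by family, with results of these data known. The HG + FFA and ALL contrasts of WT VSMC are therefore given as a description without a test, for every gene.

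WT VSMC were smooth muscle cells in primary culture from the thoracic and abdominal aorta, and KO VSMC were the same cells from animals whose floxed Egfr gene was deleted by a Cre under the SM22 promoter, which is active in smooth muscle. EC were CD45-/CD31+ cells sorted from the heart by magnetic beads. All came from male C57BL/6 mice, and 13 animals gave 18 sets of libraries, where a set holds the conditions of cells from the same animal. Cells were left untreated (Control) or received for 24 h 20 mM glucose with 100 µM free fatty acids (HG + FFA), 30 nM angiotensin II with 300 nM epinephrine (AII + NA), or all of these together (ALL), and bovine serum albumin was in all incubation solutions. The concentrations are those of the sample labels, whereas the study's methods name norepinephrine and give 100 µM each of oleate and palmitate. Of 69 libraries, 16 were WT VSMC (sets 1 to 4, n = 4 per condition), 15 KO VSMC (sets 5 to 8, n = 4, with ALL at n = 3 because set 5 had no ALL library here) and 38 EC (sets 9 to 18, n = 10 for HG + FFA and ALL, n = 9 for Control and AII + NA). The label of every EC sample names the WT genotype, although sets 15 and 16 carry the animal numbers of KO VSMC sets 7 and 6, in which Cre was driven in smooth muscle. EC sets 9 and 10 came from the animals of WT VSMC sets 1 and 2, and sets 17 and 18 of EC share an animal, so that EC stand for 9 animals.

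Apolipoproteins coat lipid particles and guide their transport and uptake. Apolipoprotein E is the ligand by which endocytic receptors take up remnant particles, is secreted by macrophages and smooth muscle cells, and its gene is a known target of the liver X receptors (LXR), the nuclear receptors that sense oxysterols. Apolipoprotein C1, encoded beside Apoe, is a small exchangeable apolipoprotein that slows particle uptake. Apolipoprotein D is a lipocalin, unrelated in fold to the others, that binds small hydrophobic molecules such as arachidonic acid and is known to be made in peripheral nerve and in cells that stop dividing. Clusterin, or apolipoprotein J, is a secreted chaperone that binds misfolded proteins and lipids.

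On GRCm39, Apod (ENSMUSG00000022548) lies on chromosome 16 from 31115010 to 31135355 on the minus strand. Apoe (ENSMUSG00000002985, 19430034 to 19434947) and Apoc1 (ENSMUSG00000040564, 19422540 to 19427328) are neighbours on the minus strand of chromosome 7, and Clu (ENSMUSG00000022037, 66190200 to 66218999) is on the plus strand of chromosome 14. Exons of Gm41442 on the opposite strand cover 26.44% of the exon bases of Apod, and those of Gm71725 cover 12.87% of Apoe. Gm41442 was counted as a gene of its own, whereas Gm71725 was not found among the counted genes. The strand setting of the counting is not stated, so how reads from these overlaps were counted is not known. Gm41442 itself had set means of 1.51 to 6.43 FPM (fragments per 1000000 of the library size, scaled by TMM factors), below Apod in 7 of 8 VSMC sets and above it in 9 of 10 EC sets.

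The RefSeq promoter tables (GRCm38.p6) held 2 of the 4 members, Apod and Apoe, and their promoters are shown to let the start regions be compared. Each line is the 250 bases before the start site, 5′ to 3′ on the gene's own strand, with the 50 bases next to the start site in capitals. Apod is at chr16:31314809-31315058 and Apoe at chr7:19699189-19699438, both on the minus strand.
Apod: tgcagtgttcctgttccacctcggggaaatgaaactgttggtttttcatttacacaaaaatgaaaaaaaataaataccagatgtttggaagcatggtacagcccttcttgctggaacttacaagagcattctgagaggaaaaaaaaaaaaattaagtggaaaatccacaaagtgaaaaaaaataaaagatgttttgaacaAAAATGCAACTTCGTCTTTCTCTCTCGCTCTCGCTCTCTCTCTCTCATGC
Apoe: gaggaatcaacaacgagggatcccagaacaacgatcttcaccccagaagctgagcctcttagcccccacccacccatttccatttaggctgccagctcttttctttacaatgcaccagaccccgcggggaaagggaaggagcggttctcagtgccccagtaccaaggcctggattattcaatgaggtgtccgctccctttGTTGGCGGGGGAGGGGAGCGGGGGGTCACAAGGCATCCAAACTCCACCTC
The Apod window held 36.4% G or C and the Apoe window 57.2%, against a median of 52.4% over 32851 promoters of the table. The 50 capital bases held 48% in Apod and 68% in Apoe. Of 7 motifs searched on both strands, none was found in either window. They were the TATA box TATAAA, held by 12.4% of all promoters of this length, the CCAAT box CCAAT (33.8%), the GC box GGGCGG (32.7%), the nuclear receptor half-site AGGTCA (14%), the AP-1 site TGANTCA (6.75%), the E-box CACGTG (6.02%) and the forkhead site GTAAACA (3.17%).

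Several sets stood apart in ways that bear on the values below. Egfr was at 228 to 504 FPM in WT VSMC and at 0.537 to 1.96 FPM in KO VSMC sets 6 to 8, but at 33.4 to 40.2 FPM in KO VSMC set 5. Set 5 also had the highest sums of smooth muscle (3261 FPM), fibroblast (6259 FPM) and Schwann cell markers (128 FPM) among KO VSMC. Among EC, mean Egfr was lowest in set 16 (2.65 FPM) and set 15 (9.40 FPM), beside 12.8 to 151 FPM in the other EC sets. Sets 15 and 16 carry the animal numbers of KO VSMC sets 7 and 6, and whether Egfr was deleted in their EC was not tested. Of the smooth muscle markers, Acta2 was high in all VSMC sets (601 to 2376 FPM), while Tagln was at 2.52 to 10.5 FPM and Des at 0.568 to 3.31 FPM. In EC, the summed endothelial markers were 57.6 FPM in set 13, 74.9 FPM in set 9 and 114 FPM in set 11, beside 18.004 to 87.8 FPM in WT VSMC and 510 to 2980 FPM in the other 7 EC sets. In sets 9 and 13 this sum was within the range of WT VSMC, where Flt1 alone was at 16.4 to 54.2 FPM. Single markers differed. Pecam1 was at 17.9 FPM or more in every EC set, against 0.335 to 13.1 FPM in WT VSMC. Cdh5 was at 8.80 FPM or more in EC and overlapped WT VSMC (0.0586 to 18.9 FPM). Sets 9, 11 and 13 were thus low in endothelial markers. Results on EC are also given without them, a choice made after seeing the data. The depth was 17166133 to 43240489 counts per library, and 0 pairs of libraries held identical counts.

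The members differed in level by orders of magnitude. Per exon length, Apoe had the highest mean in WT VSMC (463 ± 228 FPKM, SD over n = 4 sets) and KO VSMC (222 ± 218, n = 4). Clu followed at 34.1 ± 16.2 FPKM in WT VSMC and 101 ± 18.3 in KO VSMC, and was level with Apoe in EC (226 ± 253 against 217 ± 231 FPKM, n = 10), where the spread of each is larger than their difference. In KO VSMC sets 6 and 7 Clu was above Apoe (106 and 115 against 66.5 and 80.7 FPKM). In KO VSMC sets 5 and 8 it was below Apoe (108 and 73.8 against 535 and 207 FPKM). Apod reached 11.3 ± 6.79 FPKM in WT VSMC, 4.49 ± 5.44 FPKM in KO VSMC and only 0.497 ± 0.676 FPKM in EC. Apoc1 stayed at 0.181 ± 0.0786, 0.156 ± 0.114 and 0.105 ± 0.0989 FPKM, so that the order Apoe, Clu, Apod, Apoc1 held for the means of both VSMC types, and the set means of Apod and Apoc1 overlapped in EC (0.0200 to 2.34 against 0.0128 to 0.276 FPKM) but not in KO VSMC (0.902 to 12.6 against 0.0153 to 0.255 FPKM).

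**Figure D1:**
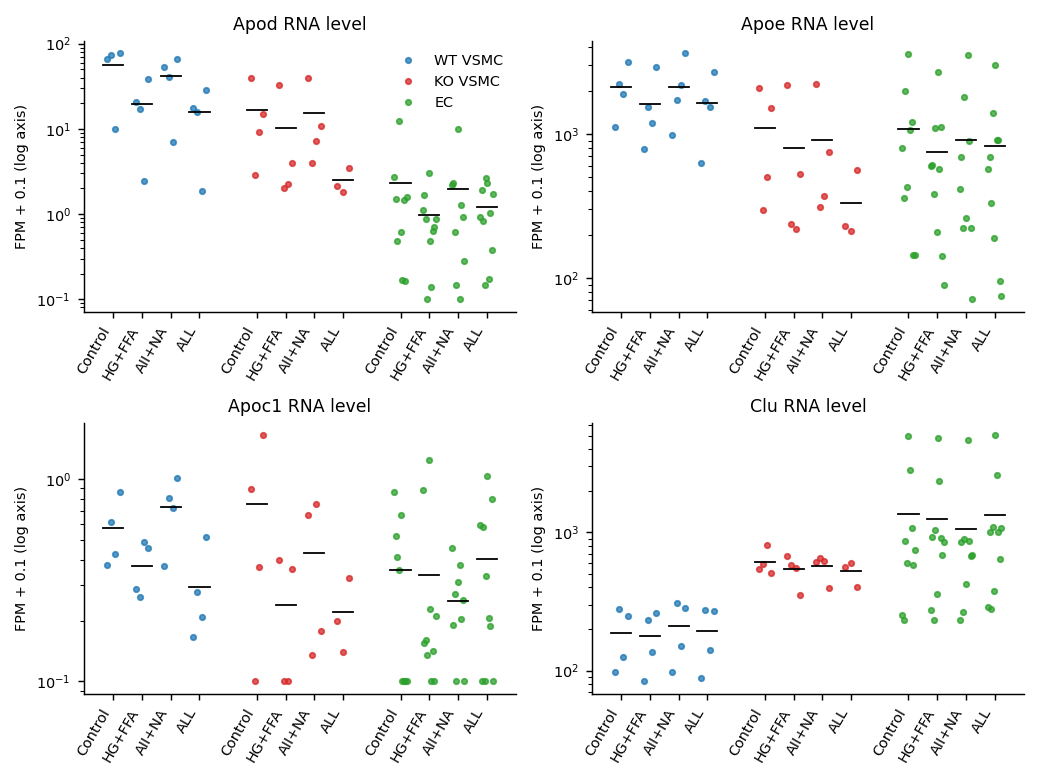
RNA level of Apod, Apoe, Apoc1 and Clu by condition, as FPM plus 0.1 on a log axis, in WT VSMC (blue, n = 4), KO VSMC (red, n = 4, ALL n = 3) and EC (green, n = 9 or 10). Each point is a library and each bar the mean of FPM plus 0.1. Apod means in WT VSMC are 56.6 FPM in Control, 19.7 with HG + FFA and 15.8 with ALL, and Clu is higher in every KO VSMC library than in every WT VSMC library.

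Apod was lower under HG + FFA and under ALL in every WT VSMC set. In Control it was at 65.2, 74.0, 9.73 and 77.5 FPM in sets 1 to 4, and under HG + FFA at 20.8, 16.9, 2.37 and 38.6 FPM. With ALL the sets held 17.6, 15.6, 1.74 and 28.3 FPM. Set 3 had the lowest level under each condition, and the groups overlapped because of it, while each set fell to between 22.8% and 49.8% of its own Control under HG + FFA and to between 17.9% and 36.4% under ALL. The log2FC was -1.67 (SE 0.15) for HG + FFA and -1.97 (SE 0.15) for ALL, the contrasts that led to the choice of Apod. For reference, 48 of 16905 genes (0.284%) were DEG (differentially expressed genes) with HG + FFA and 368 (2.18%) with ALL, where DEG had to reach an FDR below 0.05 in both edgeR and DESeq2, a log2FC of 0.64 or more in size and 3 FPM or more on average in either group. ALL minus HG + FFA came to -0.29 (SE 0.15) for Apod, lower in 4 of 4 sets.

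AII + NA alone left Apod at 53.1, 40.8, 6.86 and 66.1 FPM in WT VSMC sets 1 to 4. All 4 values were below the Control of the same set, at 55.2% to 85.2% of it, a smaller shift than with HG + FFA in each set. The log2FC of -0.49 (SE 0.14) did not pass the test (edgeR's quasi-likelihood FDR = 0.246, DESeq2 FDR = 0.100), and it shares its Control libraries with the contrasts that chose Apod. Of all genes, 7 of 16905 (0.0414%) were DEG in this comparison, and 0 of 4 members were among them.

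In KO VSMC, libraries on which Apod had not been selected, the same direction was seen. Control values were 39.1, 2.81, 9.20 and 14.9 FPM in sets 5 to 8, and HG + FFA values 32.8, 1.90, 2.14 and 3.91 FPM. ALL gave 2.06, 1.69 and 3.41 FPM in sets 6 to 8. Set 5, which retained Egfr RNA, had the highest level and the smallest shift, to 83.9% of its Control, whereas sets 7 and 8 were at 23.3% and 26.3%. The log2FC was -1.16 (SE 0.28) for HG + FFA and -1.59 (SE 0.33) for ALL, lower in 4 of 4 and 3 of 3 sets. Both missed the threshold in edgeR (FDR = 0.0993 and 0.0541) and passed it in DESeq2 (FDR = 0.00284 and 0.000280), so that Apod was not called. Without set 5 the log2FC was -1.61 (SE 0.29) for HG + FFA (edgeR FDR = 0.0113) and -1.72 (SE 0.29) for ALL (edgeR FDR = 0.00980), and both were DEG.

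Counts over the members follow this pattern in KO VSMC. With all sets 0 of 4 members were called under HG + FFA, beside 50 of 17538 genes (0.285%), and 0 of 4 under ALL, beside 55 genes (0.314%). Without set 5 these counts became 2 of the members under each, Apod and Apoe, beside 289 of 16821 genes (1.72%) for HG + FFA and 124 (0.737%) for ALL. AII + NA left Apod at 39.7, 3.91, 7.08 and 10.8 FPM in sets 5 to 8, above Control in 2 of 4 sets (log2FC -0.15, SE 0.27, edgeR FDR = 0.829). In that comparison 0 members and 0 of all 17538 genes (0%) were DEG, with 0 genes below an FDR of 0.05 in edgeR, 11 in DESeq2 and 1711 at an unadjusted p below 0.05 in edgeR.

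**Figure D2:**
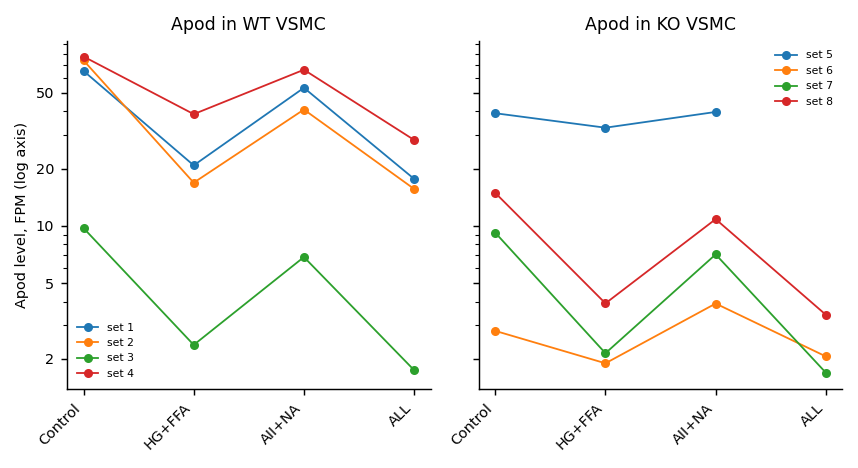
Apod level in FPM on a log axis for each set of WT VSMC (left) and KO VSMC (right) across Control, HG + FFA, AII + NA and ALL. Points are libraries and lines join the libraries of a set. The lines of sets 1 to 4, 7 and 8 dip at HG + FFA and at ALL, that of set 6 dips from 2.81 to 1.90 FPM, and that of set 5, which has no ALL library, stays between 32.8 and 39.7 FPM.

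In EC, Apod was low, with set means of 0.0592 to 6.91 FPM and a median of 0.931 FPM. In Control it ranged from 0.0620 over a median of 1.37 to 12.2 FPM, under HG + FFA from 0 over 0.690 to 2.93 FPM, under AII + NA from 0 over 0.824 to 9.94 FPM and under ALL from 0.0474 over 0.867 to 2.54 FPM. The 2 libraries at 0 counts allow up to 0.104 and 0.106 FPM, by 3 counts, a limit that covers counting error only. Set 13, with low endothelial and high fibroblast (9952 FPM) and smooth muscle (2994 FPM) marker sums, held the highest level under every condition. In set 13 Apod was at 12.2 FPM in Control, 2.93 with HG + FFA, 9.94 with AII + NA and 2.54 with ALL. The log2FC over all sets was -1.08 (SE 0.53, edgeR FDR = 0.294) for HG + FFA, -0.62 (SE 0.53, FDR = 0.802) for AII + NA and -0.47 (SE 0.53, FDR = 0.721) for ALL, and none passed the test. The highest mean of a condition in these contrasts was 2.29 FPM, below the 3 FPM that a DEG needed, so that Apod could not have been called in them. Without sets 9, 11 and 13 the log2FC for ALL was 0.0042 (SE 0.57, edgeR FDR = 0.999).

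Apod was high in the VSMC sets in which markers of several other cell types were high, among them those of Schwann cells, the glia of peripheral nerve. The 6 Schwann cell markers summed to 53.4 to 82.2 FPM in WT VSMC sets 1, 2 and 4, and to 128 FPM in KO VSMC set 5, the sets in which Apod averaged 36.8 to 52.6 FPM. In WT VSMC set 3 and KO VSMC sets 6 to 8 the sum was 7.84 to 14.8 FPM and Apod averaged 2.67 to 8.27 FPM. The same sets were also apart in the summed markers of macrophages (100 to 231 against 36.9 to 55.9 FPM), endothelial cells (32.9 to 87.8 against 14.8 to 19.1 FPM) and lymphatic endothelial cells (133 to 217 against 59.7 to 126 FPM). The last sum was mostly Pdpn, at 46.7 to 214 FPM in WT VSMC and 95.9 to 127 FPM in KO VSMC. Prox1, Lyve1 and Ccl21a of that list were at 0.431 FPM or less in VSMC sets. Of the endothelial list Flt1 had the highest median (38.5 FPM in WT VSMC, 11.7 FPM in KO VSMC). Pecam1, Kdr and Vwf had medians of 1.09 FPM or less in both. The sums of fibroblast markers (4597 to 10055 against 1514 to 5893 FPM) and smooth muscle markers (777 to 3261 against 880 to 2001 FPM) overlapped between these sets. Of the Schwann cell markers, Sox10 and Foxd3 were at 0 or near it in EC (medians of 0 FPM), and Ngfr ranged from 0.0966 to 44.5 FPM over WT VSMC sets. Within sets the mean log2 ratio of the Schwann cell sum to Control with HG + FFA was -0.17 ± 0.16 in WT VSMC (SD, n = 4). In KO VSMC it was -0.41 ± 0.30 (n = 4). With ALL the ratio was -0.25 ± 0.15 in WT VSMC, lower in 4 of 4 sets, and -0.49 ± 0.016 in KO VSMC, lower in 3 of 3. The marker S100b fell in KO VSMC with HG + FFA (log2FC -0.68, SE 0.12, edgeR FDR = 0.0213). Of the fibroblast markers 0 of 8 were called in KO VSMC with all sets, and 3 of 8 (Lum, Pi16 and Scara5) fell with HG + FFA without set 5, in the same fit in which Apod and Apoe were DEG. In WT VSMC the log2FC of Pi16 with HG + FFA was -0.71 (SE 0.11), as a description. The part of these cell types in the Apod and Apoe values of VSMC was not tested. In bulk libraries, fewer cells of a type and less RNA per cell cannot be told apart.

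**Figure D3:**
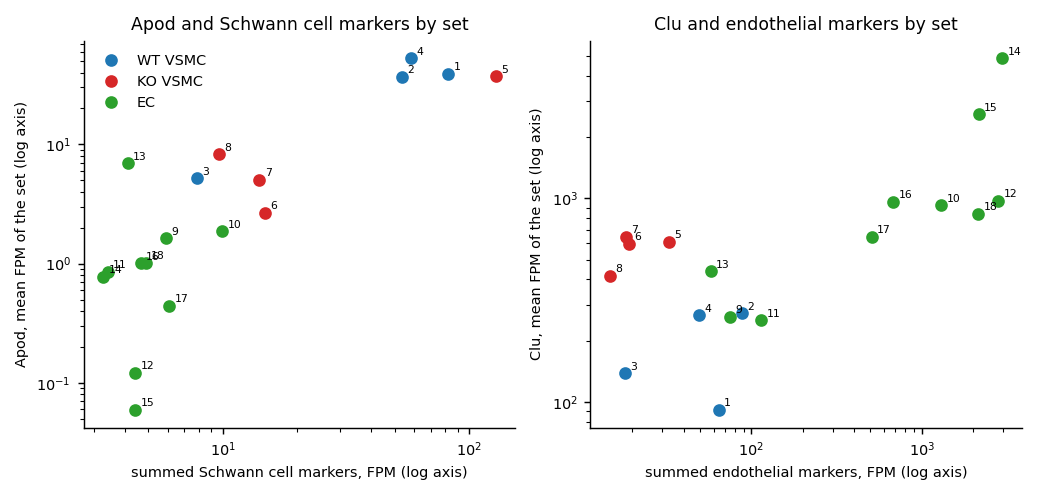
Mean level of Apod against the summed Schwann cell markers (left) and of Clu against the summed endothelial markers (right), in FPM on log axes. Each point is a set, numbered 1 to 18, in WT VSMC (blue), KO VSMC (red) and EC (green). Sets 1, 2, 4 and 5 stand at the upper right of the left panel, and EC sets 9, 11 and 13 lie near WT VSMC in the right panel.

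Apoe, the member with the highest mean in both VSMC types, was also lower under HG + FFA. In WT VSMC sets 1 to 4 Control gave 1115.95, 2233, 1909 and 3166 FPM, and HG + FFA gave 793, 1537, 1202 and 2936 FPM. ALL gave 627, 1685, 1539 and 2711 FPM. Every set was below its own Control under both conditions, while the groups overlapped, since the sets differed by more than the stressors moved them. The log2FC, as a description, was -0.45 (SE 0.12) for HG + FFA and -0.44 (SE 0.12) for ALL. AII + NA gave 986, 1712, 2176 and 3652 FPM, lower in 2 of 4 sets and higher in 2 (log2FC -0.04, SE 0.12, edgeR FDR = 0.956). The last value changed sign without set 1 (0.015) and without set 2 (0.079).

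Apoe in KO VSMC was split by set 5 in the same way as Apod. Control values were 2084, 298, 506 and 1523 FPM in sets 5 to 8, HG + FFA values 2194, 239, 218 and 526 FPM, and ALL values 230, 211 and 563 FPM in sets 6 to 8. Set 5 was the only set above its Control under HG + FFA, at 105%, and the others were at 34.5% to 80.2%. The log2FC was -0.77 (SE 0.20) for HG + FFA and -0.92 (SE 0.23) for ALL, which missed the threshold in edgeR (FDR = 0.160 and 0.112) and passed it in DESeq2 (FDR = 0.0185 and 0.00739). Without set 5 both were DEG, at -1.05 (SE 0.19, edgeR FDR = 0.0113) and -1.06 (SE 0.19, edgeR FDR = 0.0114). AII + NA left Apoe at 2221, 311, 371 and 746 FPM, lower in 2 of 4 sets (log2FC -0.37, SE 0.20, edgeR FDR = 0.518).

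In EC, Apoe was lower with HG + FFA in 8 of 9 sets and with ALL in 9 of 9. It ranged from 143 over a median of 799 to 3593 FPM in Control, from 88.8 over 585 to 2696 FPM with HG + FFA, and from 75.3 over 633 to 3027 FPM with ALL. Relative to the Control of the same set the levels were 48.7% to 106% under HG + FFA (median 75.04%) and 44.4% to 93.1% under ALL (median 72.1%). The groups overlapped, since EC sets differed 33.7-fold in their mean Apoe. The log2FC of -0.49 (SE 0.13) for HG + FFA and -0.50 (SE 0.13) for ALL had an FDR below 0.05 in edgeR (0.0292 and 0.0265) and in DESeq2 (0.00624 and 0.00511). Both were under the size limit of 0.64, so that 0 of the 3 members tested were DEG, beside 115 of 17148 genes (0.671%) under HG + FFA and 110 (0.641%) under ALL. With the size and FPM limits left out Apoe was the 1 member that fell, beside 360 genes (2.1%) that fell with HG + FFA and 350 (2.04%) with ALL.

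This fall of Apoe in EC was not stable in the test. Without EC sets 9, 11 and 13 the log2FC kept its size, -0.49 (SE 0.15) and -0.46 (SE 0.15), but the edgeR FDR was 0.0747 and 0.117. With the animal in place of the set as the block, since sets 17 and 18 share an animal, the edgeR FDR was 0.185 and 0.174. Leaving out set 10, 12, 13, 14, 15 or 18 alone gave an edgeR FDR of 0.0508 to 0.129 for HG + FFA, and leaving out set 12, 13 or 18 gave 0.0546 to 0.120 for ALL. Under AII + NA, Apoe ranged from 71.2 over 413 to 3535 FPM and was lower in 7 of 8 sets (log2FC -0.38, SE 0.14, edgeR FDR = 0.716). In that comparison 0 members and 0 of all genes (0%) were DEG, with 0 genes below an FDR of 0.05 in either tool and 1136 at an unadjusted p below 0.05 in edgeR.

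**Figure D4:**
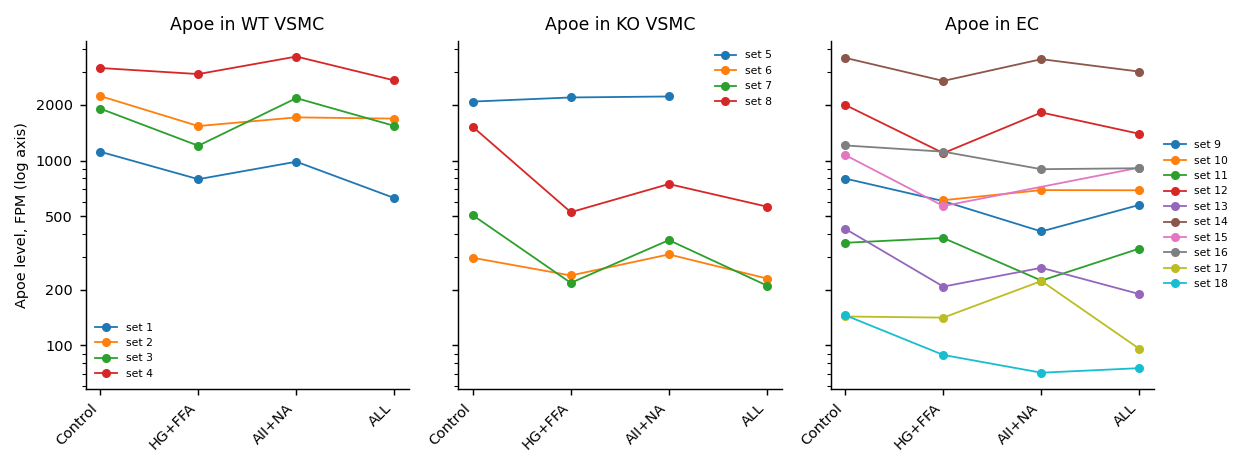
Apoe level in FPM on a log axis for each set of WT VSMC, KO VSMC and EC across Control, HG + FFA, AII + NA and ALL. Points are libraries and lines join the libraries of a set, bridging the AII + NA library missing for set 15. Sets are spread more widely than conditions, and set 5 (2084 to 2221 FPM) and set 14 (2696 to 3593 FPM) run above the other sets of their panel.

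Fibroblast genes, markers of the connective tissue cells that culture can carry along, also moved with HG + FFA in EC. Of 8 fibroblast markers, 3 fell, Col1a1 (log2FC -0.74, edgeR FDR = 0.0170), Pi16 (-1.03, FDR = 0.0396) and Scara5 (-1.24, FDR = 0.00772), and 0 rose, beside 0.671% of all genes called. Under ALL, Scara5 was called (-1.47, edgeR FDR = 0.00183) and Col1a1 and Pi16 were not. Without sets 9, 11 and 13, Col1a1 and Scara5 fell with HG + FFA and with ALL. The summed level of the 8 markers ranged from 611 to 9952 FPM over EC sets. Its mean log2 ratio to Control was -0.25 ± 0.27 (SD, n = 9) under HG + FFA and -0.18 ± 0.26 (n = 9) under ALL. The macrophage sum, of cells that secrete apolipoprotein E, ranged from 14.6 to 128 FPM, with Ptprc at 0 to 0.957 FPM. Under HG + FFA the macrophage sum had a ratio of 0.05 ± 0.24 (n = 9). The part of either cell type in the Apoe values was not tested.

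No tested stressor effect on Clu passed the test in any cell type. In WT VSMC sets 1 to 4 it was at 97.2, 278, 125 and 249.6 FPM in Control, at 83.4, 233, 136 and 261 FPM with HG + FFA, and at 88.0, 274, 142 and 272 FPM with ALL. AII + NA gave 97.2, 308, 151 and 283 FPM, above Control in 4 of 4 sets, with a log2FC of 0.15 (SE 0.07, edgeR FDR = 0.552). The log2FC for HG + FFA and ALL in WT VSMC was -0.07 (SE 0.07) and 0.04 (SE 0.07). KO VSMC sets 5 to 8 held 543, 589, 808 and 510 FPM in Control and 676, 584, 552 and 352 FPM with HG + FFA (log2FC -0.19, SE 0.13, edgeR FDR = 0.520). AII + NA gave 613, 655, 624 and 397 FPM (log2FC -0.11, SE 0.13, FDR = 0.725), and ALL gave 560, 599 and 402 FPM in sets 6 to 8 (-0.20, SE 0.14, FDR = 0.636). Sets 7 and 8 were the ones below Control under every stressor.

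In EC, Clu ranged from 231 over a median of 742 to 4948 FPM in Control, from 232 over 879 to 4790 FPM with HG + FFA, from 231 over 686 to 4667 FPM with AII + NA and from 278 over 1004 to 5024 FPM with ALL. The log2FC was -0.06 (SE 0.08, edgeR FDR = 0.785), -0.10 (SE 0.08, FDR = 0.790) and 0.07 (SE 0.08, FDR = 0.747), and the first was 0.039 without set 13. The level followed the set and not the condition, with set 14 at 4667 to 5024 FPM throughout. The 3 EC sets with the lowest mean Clu, 251 FPM in set 11, 262 FPM in set 9 and 438 FPM in set 13, were those with the lowest endothelial marker sums.

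Apoc1 was near the detection limit. It gave 0 to 35 counts per library, or 0 to 1.55 FPM, and 14 of 69 libraries had 0 counts, which allows up to 0.071 to 0.146 FPM by 3 counts each. WT VSMC Control libraries held 9, 15, 12 and 21 counts in sets 1 to 4, and the ALL libraries 2, 5, 3 and 9. HG + FFA gave 6, 4, 14 and 11 counts and AII + NA 7, 19, 19 and 24, so that ALL was below Control in 4 of 4 sets and AII + NA below it in 1. These contrasts of ALL and HG + FFA are a description, as for Apod. In KO VSMC Control the level was 0.798, 0, 0.269 and 1.55 FPM in sets 5 to 8, a wider spread than in WT VSMC (0.275 to 0.766 FPM), and the genotypes overlapped (log2FC 0.49, SE 0.97, edgeR FDR = 0.832). In EC it ranged from 0 to 1.14 FPM. The filter on low counts kept Apoc1 in WT VSMC and KO VSMC but not in EC, where it was not tested for the stressors. Every library was below the mean of 3 FPM that a DEG needed, so that Apoc1 could not have been called in any comparison.

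The combination of stressors was also compared with HG + FFA alone and with the sum of the effects. Of the 4 members tested in KO VSMC and the 3 tested in EC, 0 differed between ALL and HG + FFA and 0 departed from additivity on the log2 scale, beside 0% of all genes called in each of these 4 comparisons. In both tools 0 genes had an FDR below 0.05 there, with 510 and 1155 genes in KO VSMC and 871 and 1468 in EC at an unadjusted p below 0.05 in edgeR.

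Between the genotypes, Clu was higher in KO VSMC than in WT VSMC. The 4 KO VSMC Control libraries, at 510 to 808 FPM, lay above the 4 WT VSMC Control libraries, at 97.2 to 278 FPM, and the same held under HG + FFA, AII + NA and ALL. In Control, 856 of 16089 genes (5.32%) had groups that did not overlap in this way. The log2FC was 1.72 (SE 0.35), with an FDR of 0.204 in edgeR and 0.000339 in DESeq2, so that Clu was not called. Without set 5 it was 1.77 (SE 0.38, edgeR FDR = 0.0505). Beside this, the summed mesothelial markers were 7.36, 42.0, 91.4 and 30.6 FPM in KO VSMC sets 5 to 8 against 3.82 to 6.59 FPM in WT VSMC, with no overlap. Of these markers Upk3b was the highest (5.79 to 63.4 against 2.58 to 4.22 FPM), while Wt1 was at 0 to 0.170 FPM in VSMC. Clu averaged 611, 597, 646 and 415 FPM in KO VSMC sets 5 to 8, so that set 5 had the lowest mesothelial sum and set 8 the lowest Clu. The summed fibroblast markers were 1514 to 2190 FPM in KO VSMC sets 6 to 8 and 6259 FPM in set 5, against 4597 to 10055 FPM in WT VSMC. The part of either cell type in the difference was not tested. Apod had a log2FC of -1.76 (SE 0.80, edgeR FDR = 0.411) and Apoe of -0.90 (SE 0.60, FDR = 0.517), with overlapping groups. Of the 16089 genes tested, 1 (0.00622%) was DEG between genotypes in Control, with 1 gene below an FDR of 0.05 in edgeR, 343 in DESeq2 and 1958 at an unadjusted p below 0.05 in edgeR, and 0 of 4 members were called.

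The stressor effects themselves were compared between genotypes as well, and none of the tested differences passed for the members. The AII + NA effect in KO VSMC minus that in WT VSMC was 0.33 (SE 0.32, edgeR FDR = 0.652) for Apod, -0.34 (SE 0.25, FDR = 0.557) for Apoe and -0.27 (SE 0.15, FDR = 0.448) for Clu. Of all 18339 genes, 0 (0%) were called, with 0 genes below an FDR of 0.05 in either tool and 2180 at an unadjusted p below 0.05 in edgeR. As a description, since the WT VSMC contrast chose Apod, the HG + FFA effect differed by 0.55 (SE 0.33) for Apod, -0.32 (SE 0.25) for Apoe and -0.13 (SE 0.15) for Clu. For ALL these differences were 0.38 (SE 0.38), -0.48 (SE 0.27) and -0.23 (SE 0.15).

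Between EC and WT VSMC in Control, 2 of 4 members were called, beside 1591 of 17115 genes (9.3%). Apod was lower in EC by a log2FC of -4.65 (SE 0.98, edgeR FDR = 0.0108, DESeq2 FDR = 0.000342), with 0.0620 to 12.2 FPM in 9 EC libraries against 9.73 to 77.5 FPM in 4 of WT VSMC. Clu was higher by 2.85 (SE 0.84, edgeR FDR = 0.0424, DESeq2 FDR = 0.000457), with 231 to 4948 FPM against 97.2 to 278 FPM. Both ranges overlapped, and the overlapping EC libraries were that of set 13 for Apod and those of sets 9 and 11 for Clu. Without sets 9, 11 and 13 the log2FC was -6.43 for Apod (edgeR FDR = 0.000509) and 3.32 for Clu (edgeR FDR = 0.00610). The call of Clu was lost when WT VSMC set 1, 2, 3 or 4 or EC set 12, 15, 16 or 18 was left out (edgeR FDR 0.0503 to 0.123), with a log2FC of 2.63 to 3.11. Apoe (-0.95, SE 0.69, FDR = 0.374) and Apoc1 (-0.85, SE 1.06, FDR = 0.618) were not called. This comparison had no block, although WT VSMC set 1 and EC set 9 came from the same animal, as did EC sets 17 and 18. Without set 9 the log2FC was -4.68 for Apod (edgeR FDR = 0.0179) and 2.995 for Clu (edgeR FDR = 0.0340), and without set 17 it was -4.48 (edgeR FDR = 0.0128) and 2.95 (edgeR FDR = 0.0444). The VSMC were labelled batch B1 and the EC batch B2, and the organ differs too, so that cell type, organ and batch cannot be told apart.

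Of the other apolipoproteins, few were measurable. Of 12 further apolipoprotein genes (such as Apoa1, Apob and Apom), 1 passed the filter in WT VSMC and KO VSMC and 2 in EC. All averaged less than the 3 FPM that a DEG needed. The highest was Apoa2, at means of 1.08, 1.49 and 0.522 FPM in WT VSMC, KO VSMC and EC, and the others averaged at most 0.310 FPM in each cell type. Of the 12 members of the Apol family, unrelated intracellular proteins despite the name, 4 were tested in VSMC and 5 in EC, with 0 called. Apol6 was its most abundant member in VSMC (7.90 FPM in WT VSMC, 17.6 FPM in KO VSMC).

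The receptors of apolipoproteins included genes of high level. Of 15 receptor genes 14 were tested within cell types, and 0 were called in the tested stressor comparisons. Lrp1, the large endocytic receptor of apolipoprotein E, averaged 2882, 2047 and 1662 FPM in WT VSMC, KO VSMC and EC, and Bsg, a receptor of apolipoprotein D, 1444, 1293 and 1174 FPM. Vldlr, the very low density lipoprotein receptor, had a log2FC of -0.58 with HG + FFA in KO VSMC (SE 0.12, edgeR FDR = 0.0402) and of -0.39 in EC (SE 0.10, edgeR FDR = 0.0214), both under the size limit. Without KO VSMC set 5, 1 of 12 receptors tested, Lrp2, rose with HG + FFA and with ALL. Between EC and WT VSMC 2 of 14 receptors were higher in EC, Plxna4 (2.57) and Scarb1 (0.77), a count near the 9.3% of all genes called there.

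Apoe belongs to the known LXR targets, and other genes of that list fell with HG + FFA. Of 9 such targets besides Apoe, 3 fell in EC under HG + FFA and 0 rose, beside 0.671% of all genes called. These were Abca1, the exporter that loads apolipoproteins with cholesterol (log2FC -1.11, SE 0.16, edgeR FDR = 4.06e-05), Abcg1, which passes cholesterol on to particles (-1.25, SE 0.20, FDR = 0.000208), and Mylip, a ubiquitin ligase (-1.20, SE 0.11, FDR = 4.35e-09). The same 3 fell under ALL (-1.25, -1.63 and -1.21), beside 0.641% of all genes called. Without sets 9, 11 and 13 the same 3 fell with HG + FFA and with ALL. The median log2FC of the 9 with HG + FFA was -0.283 there, beside 0.00951 over all genes tested. With all sets it was -0.296, beside -0.0112 over all genes tested. Srebf1, the regulator of lipid synthesis, had -0.57 (SE 0.11, edgeR FDR = 0.00263), under the size limit. With AII + NA 0 of 9 were called in EC, beside 0% of all genes. In KO VSMC 1 of 9, Mylip, fell with HG + FFA (-0.81, SE 0.13, edgeR FDR = 0.0147) and with ALL (-0.94, SE 0.15, FDR = 0.0165). Of all genes 0.285% and 0.314% were called there. The median was -0.211 with HG + FFA, beside 0.00354 over all genes. Without set 5 Mylip was the 1 of 8 tested that fell, beside 1.72% of all genes called with HG + FFA and 0.737% with ALL. In WT VSMC the log2FC, as a description, was -0.51 for Abca1, -1.39 for Abcg1 (SE 0.33) and -0.89 for Mylip with HG + FFA, and -0.78, -1.75 and -0.92 with ALL. The other targets in WT VSMC with HG + FFA were nearer 0. Nr1h3 was at 0.22 and Arl4c at 0.11, while Srebf1 was at -0.22, Lpcat3 at -0.21, Smpdl3a at -0.14 and Pltp at -0.07. Abcg1 was low in VSMC, at means of 1.05 FPM in WT VSMC and 0.604 FPM in KO VSMC, under the 3 FPM that a DEG needed. The part of LXR in the Apoe values was not tested.

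**Figure D5:**
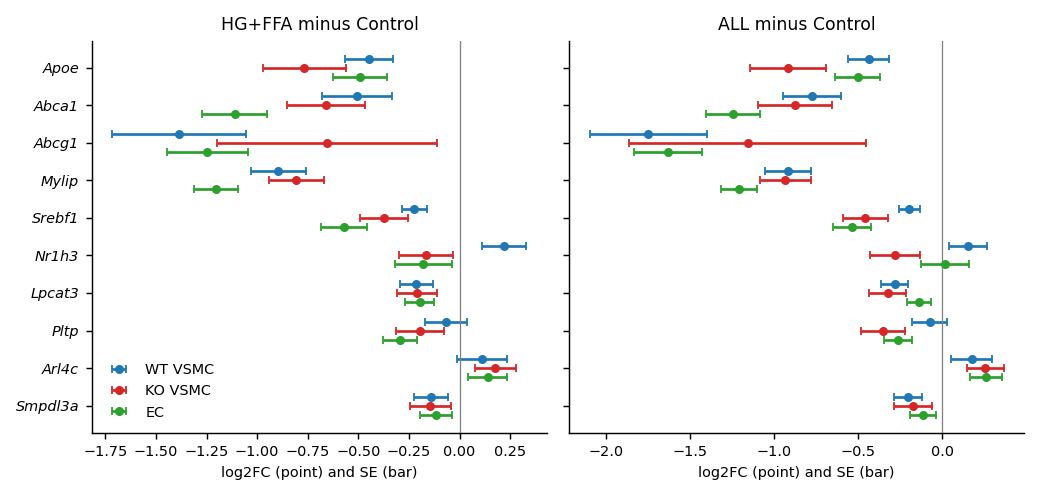
log2FC of Apoe and 9 known LXR targets for HG + FFA minus Control (left) and ALL minus Control (right) in WT VSMC (blue), KO VSMC (red) and EC (green). Points are the edgeR estimates and bars reach 1 SE to each side, and the WT VSMC values are a description without a test. Apoe, Abca1, Abcg1, Mylip and Srebf1 lie left of 0 in each cell type in both panels.

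Genes that act on the lipids of the particles moved in part the other way. Of 14 genes of lipidation and lipolysis 11 were tested. Angptl4, the secreted inhibitor of lipoprotein lipase and a fatty acid responsive gene, rose in EC with HG + FFA (log2FC 3.21, SE 0.31, edgeR FDR = 2.55e-08) and ALL (3.22, SE 0.31, FDR = 2.90e-08). In KO VSMC it rose by 2.13 (SE 0.36, edgeR FDR = 0.0151) and 2.37 (SE 0.39, FDR = 0.0176), and in WT VSMC the log2FC was 1.32 (SE 0.29) and 1.28 (SE 0.29) without a test. Abca1 and Abcg1, which are in this list too, were the 2 that fell in EC. Abcg4 was the 1 gene of the list called between EC and WT VSMC (-2.96, SE 0.87, edgeR FDR = 0.0415), beside 9.3% of all genes.

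Further lists bear on what the members are known for. Of 9 lipocalins, the family of Apod, 4 were tested in VSMC and 3 in EC, and 0 were called. Lcn2, which binds bacterial iron carriers, was the most abundant at means of 18.7, 21.7 and 287 FPM in WT VSMC, KO VSMC and EC. Of 13 genes of growth arrest and 8 of proliferation, 0 were called in the tested stressor comparisons, and without KO VSMC set 5 Cdkn1c, a cell cycle inhibitor, was the 1 that fell with HG + FFA and with ALL. In WT VSMC the proliferation gene Mki67 had a log2FC of 1.11 (SE 0.17) with HG + FFA and 1.30 (SE 0.17) with ALL, as a description. Between EC and WT VSMC 2 of the growth arrest genes were lower in EC, Gas2 (-1.81) and Gas6 (-2.01), and 1 proliferation gene, Mcm2, was higher (0.94), counts near the 9.3% of all genes called there. Of 9 chaperones, partners of Clu by function, and of 8 neighbours of Apoe and Apoc1 on chromosome 7, 0 were called in any tested comparison.

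The genes most like each member were sought over libraries centred on their set, which removes the level of the set and leaves the condition. Over the 31 VSMC libraries and 11297 genes, the closest to Apod were Rundc3a (r = 0.936), Klf2 (0.934), Pi16 (0.921, a fibroblast marker above), Col23a1 (0.913) and Xbp1 (0.899). Klf2 encodes a flow responsive transcription factor and Xbp1 one of the unfolded protein response. Closest to Apoe were Mpst (r = 0.960), Il11ra1 (0.952), Crip1 (0.949), Paxx (0.934) and Sh3d21 (0.932), and closest to Clu was Dcaf11 (0.905). Apod and Apoe had r = 0.843, Apoe and Clu 0.728, and Apod and Clu 0.508. Over the 38 EC libraries the same pairs had 0.404, 0.229 and 0.303, and the closest genes were Arf1 for Apod (0.726), Ctsf for Apoe (0.908) and Rab35 for Clu (0.789). These values are descriptions, since libraries of a condition share its effect and all genes of a library share its depth.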

How the data were processed

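RNA of 69 libraries (WT VSMC, KO VSMC and EC) was sequenced after poly(A) selection as paired reads. The authors aligned the reads to mm39 with HISAT2 2.1.0 and deposited raw read counts per Ensembl gene from featureCounts, whose settings let multiply mapping reads count, while strand and pair settings are not given in the sources used here. Counts were taken as deposited, with 17166133 to 43240489 counts per library, and 0 columns belonged to no sample.

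Each cell type was fitted with all its conditions and the set as block in edgeR 4.0.16 (quasi-likelihood test, TMM, filterByExpr) and DESeq2 1.42.0 under R 4.3.3, with Benjamini-Hochberg adjustment over all genes tested. DEG needed an FDR below 0.05 in both tools, a log2FC of at least 0.64 in size, at least 3 FPM on average in either group and a protein-coding or lncRNA gene. Control libraries were compared between genotypes and cell types without a block. The genotype difference of an effect was taken from 1 fit of both genotypes with the set as block. FPM used TMM factors over all libraries, and FPKM the union of exon lengths. The scripts were tested on simulated data.

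The members and the gene lists were chosen with earlier results of these data known. The 4 members were named in every comparison, and from each list up to 4 genes, those with the largest log2FC among the called genes of a tested comparison or else the most abundant. Vldlr, Lrp2, Srebf1, Mki67 and Cdkn1c were named after their values were seen. Likeness used log2(FPM + 0.1) centred on the set, among genes of at least 3 FPM. WT VSMC Control libraries enter the contrasts that chose Apod as well as the AII + NA, genotype and cell type comparisons. Libraries of a set came from cells of the same animal, and the set numbers are those of the sample titles. Libraries of the same set deviated together from their condition means (r of at least 0.442 for WT VSMC, 0.514 for KO VSMC and 0.480 for EC). The alternatives were other size factors, either tool alone, no filter, no block, only the groups compared, complete sets only, no limits on size and level, the animal as block, each set left out in turn and, added after seeing the data, EC without sets 9, 11 and 13. Intervals and limits at 0 counts cover counting error only.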

Additional observations from a re-analysis of the deposited data

Results flagged for a closer look

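In 11 of 44 groups of 4 to 10 libraries of a member, the highest or lowest library stood apart by Dixon's criterion. It was applied to FPM and not to log values. Chance meets it in about 1 of 20 groups where values are normally distributed. Set means were spread widely here (33.7-fold for Apoe in EC), so the count of 11 cannot be set against that rate. The groups are also not independent, since the same sets recur in them. In EC, Apod was highest in set 13 in Control (12.2 FPM, the next library at 2.62) and with AII + NA (9.94 FPM, next 2.21). Set 13 had the lowest endothelial marker sum (57.6 FPM) and the highest fibroblast marker sum (9952 FPM) of the EC sets.

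EC set 14 stood apart for both Apoe and Clu. Its Apoe was at 2696 FPM with HG + FFA (next 1117), 3535 FPM with AII + NA (next 1819) and 3027 FPM with ALL (next 1395). Its Clu was at 4790 FPM with HG + FFA (next 2330), 4667 FPM with AII + NA (next 899) and 5024 FPM with ALL (next 2587). The summed endothelial markers were highest in this set, at 2980 FPM.

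In KO VSMC with HG + FFA, set 5 stood apart for Apod (32.8 FPM, next 3.91) and Apoe (2194 FPM, next 526). It was the KO VSMC set with 33.4 to 40.2 FPM of Egfr. With AII + NA, Clu was lowest in set 8 of KO VSMC (397 FPM, next 613).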

How the results depend on the processing

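With no replicate block 0 members were called within cell types, as with the set as block, while the edgeR FDR of Apoe in EC with HG + FFA and ALL was 0.9999 for both, and the log2FC of Apoe in WT VSMC with AII + NA was 0.018 and of Clu in EC with ALL -0.018. The number of members called in KO VSMC went from 0 to 2 (Apod and Apoe) with HG + FFA by DESeq2 alone, with no filter on low counts and with complete sets only, and with ALL in the same settings and with only the groups compared; leaving out each set gave 0 to 2 for both. It went from 0 to 1 in EC with HG + FFA and with ALL when the limits on size and level were dropped, and from 0 to 1 (Clu) between genotypes by DESeq2 alone. Between EC and WT VSMC, leaving out each set gave 1 to 2, without the values for sets 1, 3 and 9, where DESeq2 gave Apod no adjusted p and its edgeR FDR was 0.0332, 0.0157 and 0.0179. The sign turned for Apoe in WT VSMC with AII + NA (0.015 without set 1, 0.079 without set 2, -0.11 to 0.079 over each set left out), for Clu in EC with HG + FFA (0.039 without set 13, 0.029 without sets 9, 11 and 13, -0.089 to 0.039 over each set left out) and for Apod in EC with ALL (0.0042 without sets 9, 11 and 13). Apoe in EC lost its FDR below 0.05 in 10 of 18 alternatives with HG + FFA and in 6 of 18 with ALL. The number of DEG over all genes ranged from 0 to 63 in WT VSMC with AII + NA (7 as reported), from 0 to 289 in KO VSMC with HG + FFA (50), from 0 to 13 with AII + NA (0) and from 0 to 134 with ALL (55), from 2 to 614 in EC with HG + FFA (115) and from 2 to 534 with ALL (110), from 0 to 348 between genotypes in Control (1) and from 577 to 3509 between EC and WT VSMC (1591). Levels without TMM factors stayed within 1 SD in 12 of 12 cases. The cause of these changes was not tested. Depth limits Apoc1 in all cells and Apod in EC, and 4 sets per genotype limit the comparison of KO VSMC with WT VSMC.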
